A study of Homo sapiens with 8 samples.

Results

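The 10 genes of the bone morphogenetic protein (BMP) signalling axis, led by SMAD1, were read in H1299 and H2009 cells after knockdown of PTK7. They are SMAD1, SMAD5, SMAD4, SMAD6, ID1, ID2, ID3, BMPR1A, BMPR2 and BMP4. A gene was read through its brightest probe set with a single gene symbol. Of the 10 genes, 9 were found among the 18404 genes measured in this way, each with 1 probe set. BMPR1A, a type I BMP receptor gene, had no single-symbol probe set and is not analysed further. SMAD1 was chosen by its log2 difference between PTK7 and control hairpins averaged over both lines, so its knockdown differences are given as descriptions without a test. The other genes were chosen for their place in the pathway, with earlier results of these data known.

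The groups were H1299 cells with PTK7 hairpins, H1299 cells with control hairpins, H2009 cells with PTK7 hairpins and H2009 cells with control hairpins. NCI-H1299 and NCI-H2009 are established human lines described as lung adenocarcinoma. PTK7 encodes a catalytically inactive receptor tyrosine kinase-like protein known for its part in planar cell polarity and Wnt signalling. Short hairpin RNAs were delivered by lentivirus made in 293FT cells, with infection for 2 days, puromycin for 2 days and RNA at day 4 after infection. All 8 cultures, controls included, were therefore infected and drug-selected, and each was a pool of infected cells rather than a clone. The 4 hairpins were the same in both lines: PTK7-1 and PTK7-2 target PTK7, and the controls target GFP and luciferase (LUC). With 1 array for each, the arrays of a group differ in their hairpin. Repeated cultures are not mentioned in the labels, so the p-values rest on array-to-array spread, which may be technical in part. The values are log2 signals per probe set, on which a difference of 1 is a doubling of signal, and a difference between the signals of separate genes is not read as a difference in their RNA.

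BMP ligands such as BMP4 bind a pair of serine/threonine kinase receptors. The type II receptor, for example BMPR2, activates a type I receptor, which phosphorylates SMAD1 and SMAD5. These pair with the shared partner SMAD4 and act in the nucleus on target genes. ID1, ID2 and ID3 are among the best known direct targets and encode proteins that hold basic helix-loop-helix factors away from DNA. SMAD6, an inhibitory SMAD, is also induced by the pathway and restrains it. In lung epithelium BMP signalling is known for its part in branching and airway differentiation. The arrays measure RNA, and receptor activity and SMAD phosphorylation were not measured. In RNA from whole cultures, fewer cells of a type and less RNA per cell cannot be told apart.

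Promoter windows are printed for SMAD1, because its level was low under all PTK7 hairpins, and for ID1, ID2 and ID3, because these targets had opposite differences in the lines. The windows come from RefSeq on GRCh38.p14 and run 5′ to 3′ on the gene's strand, from 250 bases before to 50 bases after a transcription start, 300 bases each. Capitals mark 4 short motifs searched on both strands. The first is GGCGCC, which is the core of a GC-rich element bound by SMAD1 and SMAD5. The next is CAGAC, which is the core of an element bound by SMAD proteins in general. The remaining motifs are general promoter motifs, CCAAT for the CCAAT box and TATAA for the TATA box. A match describes the letters only. SMAD1 has 5 windows in the table, and the one shown is the only one holding both SMAD motifs. That window was thus picked for its letters. It lies on the plus strand at chr4:145482084-145482383. ID1 lies on the plus strand at chr20:31605039-31605338, ID2 on the plus strand at chr2:8681806-8682105 and ID3 on the minus strand at chr1:23559452-23559751.
SMAD1: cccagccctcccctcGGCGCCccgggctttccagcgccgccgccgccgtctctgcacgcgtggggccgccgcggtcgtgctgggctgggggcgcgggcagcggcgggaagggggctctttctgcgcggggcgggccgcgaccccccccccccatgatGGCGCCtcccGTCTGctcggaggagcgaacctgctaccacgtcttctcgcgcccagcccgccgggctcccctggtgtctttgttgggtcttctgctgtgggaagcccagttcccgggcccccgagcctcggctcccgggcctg
ID1: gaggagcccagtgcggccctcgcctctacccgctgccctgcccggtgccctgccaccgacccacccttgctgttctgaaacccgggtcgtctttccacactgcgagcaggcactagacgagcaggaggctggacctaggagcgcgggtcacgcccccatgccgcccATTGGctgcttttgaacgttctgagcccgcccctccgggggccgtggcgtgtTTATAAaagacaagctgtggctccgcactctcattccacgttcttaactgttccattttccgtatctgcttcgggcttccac
ID2: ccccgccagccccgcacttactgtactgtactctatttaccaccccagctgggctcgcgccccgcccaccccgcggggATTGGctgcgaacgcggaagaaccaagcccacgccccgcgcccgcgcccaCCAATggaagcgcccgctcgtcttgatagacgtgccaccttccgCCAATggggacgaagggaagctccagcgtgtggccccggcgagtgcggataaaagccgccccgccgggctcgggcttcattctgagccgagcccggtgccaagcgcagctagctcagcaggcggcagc
ID3: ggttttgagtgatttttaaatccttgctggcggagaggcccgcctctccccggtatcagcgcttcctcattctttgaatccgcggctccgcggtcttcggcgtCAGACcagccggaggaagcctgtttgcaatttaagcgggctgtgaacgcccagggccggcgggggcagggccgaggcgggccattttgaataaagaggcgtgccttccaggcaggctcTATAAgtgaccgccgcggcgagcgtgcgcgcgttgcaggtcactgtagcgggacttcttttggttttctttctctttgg
The SMAD1 window shown held 2 GGCGCC matches and 1 CAGAC match. Of the other 4 SMAD1 windows, 3 held neither motif and 1 held 2 GGCGCC matches and no CAGAC, so the matches in the window shown are not set against the ID windows or the shares of all promoters. The ID1 window held 1 CCAAT match and 2 TATAA matches that overlap each other on opposite strands. The ID2 window held 3 CCAAT matches. The ID3 window held 1 CAGAC match and 1 TATAA match. None of the 3 ID windows held GGCGCC within these 300 bases. Over 35116 promoter windows of the same length, GGCGCC occurred in 19.2%, CAGAC in 45.3%, CCAAT in 34.6% and TATAA in 20.4%.

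PTK7 itself was lower with each of its hairpins than with either control hairpin in both lines. In H1299 it had log2 signals of 5.63 and 5.53 with PTK7-1 and PTK7-2, against 5.73 and 6.03 with GFP and LUC. The difference there was -0.30 ± 0.17, with a 95% interval of -0.70 to 0.09. It did not pass over all genes (limma adjusted p = 0.804). In H2009 PTK7 had 5.63 and 5.94, against 6.64 and 6.86. That difference of -0.96 ± 0.17 did not pass either (limma adjusted p = 0.222). Errors after ± are standard errors of the limma fit unless marked SD. The epithelial markers, 8 genes, were all above the median gene in H2009, while in H1299 only KRT8 and KRT18 were. EPCAM and CDH1, which define epithelium, averaged 3.39 and 4.06 in H1299 controls, where the median gene stood at 6.28. Of 5 measured lung lineage markers, 0 exceeded the median gene in H1299 and 1, NKX2-1, did in H2009. All 4 mesenchymal markers exceeded it in H1299. Leukocyte, fibroblast and endothelial marker lists had array means between 3.92 and 4.88. Within them CD68 exceeded the median gene in both lines, with 10.27 in H1299 controls and 7.99 in H2009 controls. COL1A1 exceeded it in H2009, with 6.84 in controls.

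SMAD1 was the only gene of the axis whose PTK7 arrays both lay below both control arrays in each line. The H1299 log2 signal of SMAD1 was 6.76 with PTK7-1 and 7.04 with PTK7-2, against 7.67 with GFP and 7.73 with LUC. In H2009 it was 6.04 and 6.24 with the PTK7 hairpins, against 7.06 and 7.23 with GFP and LUC. Thus every PTK7 array was low and the groups did not overlap in either line. Group means for SMAD1 in H1299 were 6.90 ± 0.20 under PTK7 hairpins and 7.70 ± 0.04 under control hairpins (SD, n = 2 each). In H2009 they were 6.14 ± 0.14 under PTK7 hairpins and 7.14 ± 0.12 under control hairpins (SD, n = 2 each). The difference for SMAD1 was -0.80 ± 0.15 in H1299, where 57.4% of the control signal remained. It was -1.0 ± 0.15 in H2009, where 49.9% remained. Averaged over the lines SMAD1 was 1.87-fold lower, at -0.90 ± 0.10. Of all genes, 4.53% (833) were separated downward in both lines, and nothing is read from that share for SMAD1 because this contrast chose it.

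SMAD1 was low with each PTK7 hairpin in each line. Relative to the control mean of the line, SMAD1 stood at -0.94 with PTK7-1 and -0.66 with PTK7-2 in H1299, and at -1.10 and -0.90 in H2009. PTK7-1 minus PTK7-2 over both lines was -0.24 ± 0.14, with a 95% interval of -0.56 to 0.08. The knockdown difference in H1299 minus that in H2009 was 0.20 ± 0.21, with a 95% interval of -0.29 to 0.69 (limma adjusted p = 0.944). The plot of log2 signal by array shows SMAD1 beside the other 8 genes and PTK7.

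**Figure D1:**
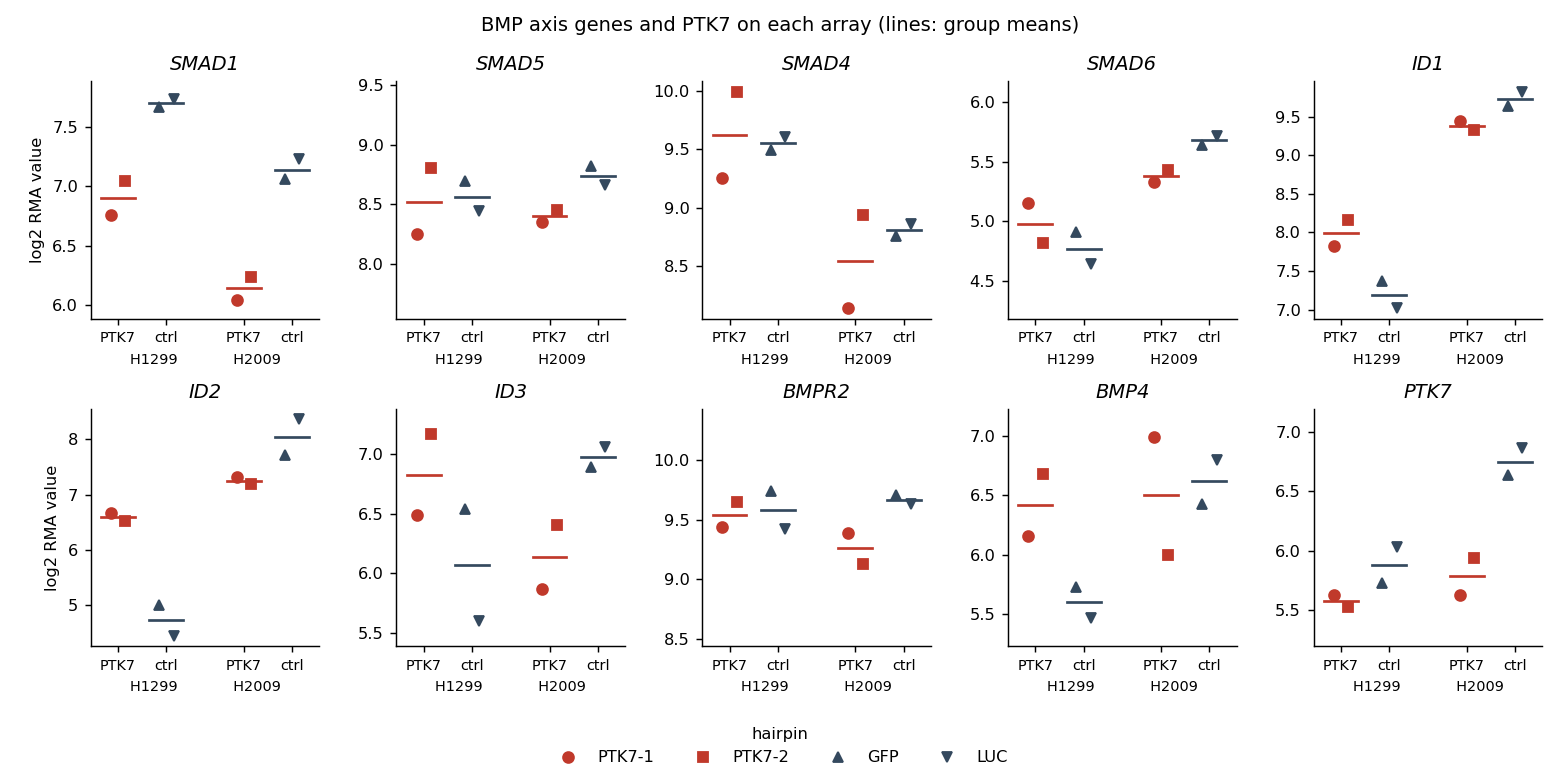
Log2 signal of the 9 measured genes and of PTK7 in each of the 8 arrays, with PTK7 hairpins left of control hairpins in each line; points are single arrays and horizontal lines are group means. SMAD1 points under PTK7 hairpins lie at 6.76 and 7.04 in H1299 and 6.04 and 6.24 in H2009, all below the control points of the same line, while ID1 and ID2 points lie above controls in H1299 and below them in H2009.

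Beside SMAD1, neither the closely related SMAD5 nor the shared partner SMAD4 was separated in both lines. SMAD5 carries the same receptor signal as SMAD1. In H1299 it had 8.25 and 8.80 with PTK7-1 and PTK7-2, against 8.69 and 8.44 with GFP and LUC, so the groups overlapped. H2009 gave 8.35 and 8.45, against 8.82 and 8.66, and both PTK7 arrays were low. The SMAD5 difference was -0.04 ± 0.20 in H1299 and -0.34 ± 0.20 in H2009. SMAD4, which joins all receptor-activated SMADs, had 9.25 and 9.99 in H1299 under the PTK7 hairpins, against 9.49 and 9.60 under controls. H2009 gave 8.14 and 8.94, against 8.76 and 8.86. In both lines the PTK7-1 array was the lowest of the 4 for SMAD4 and the PTK7-2 array was the highest.

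The receptor gene BMPR2 and the ligand gene BMP4 each had a separated group in 1 line. BMPR2 had 9.44 and 9.65 in H1299 with PTK7-1 and PTK7-2, against 9.74 and 9.42 with GFP and LUC, which overlap. Its H2009 values were 9.39 and 9.13, against 9.71 and 9.63, and the difference of -0.41 ± 0.16 did not pass over all genes (limma adjusted p = 0.609). BMP4 had 6.16 and 6.68 in H1299, against 5.73 and 5.47, so both PTK7 arrays were high. That difference was 0.82 ± 0.34 and did not pass either (limma adjusted p = 0.652). In H2009 BMP4 had 6.99 and 6.0, against 6.43 and 6.80, with the PTK7 arrays on either side of the controls and a difference of -0.12 ± 0.34.

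The target genes ID1 and ID2 had opposite differences in the lines, high under PTK7 hairpins in H1299 and low in H2009. ID2, an inhibitor of basic helix-loop-helix factors in differentiation, had 6.67 and 6.52 in H1299 with PTK7-1 and PTK7-2, against 5.0 and 4.45 with GFP and LUC. In H2009 it had 7.32 and 7.19, against 7.72 and 8.36. Each PTK7 array was thus above both controls in H1299 and below both in H2009. The ID2 difference was 1.87 ± 0.25 in H1299 and -0.79 ± 0.25 in H2009, and the H2009 value ran from -1.11 to -0.47 when each array was left out in turn. Detection calls were not used, so the ID2 signals of 5.0 and 4.45 in the H1299 controls are not shown to be above background, and no fold is given against them. Neither passed over all genes (limma adjusted p = 0.246 and 0.521).

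ID1 followed the same pattern at smaller size. It encodes the family member most often used as a readout of BMP signalling. In H1299 it had 7.82 and 8.16 with PTK7-1 and PTK7-2, against 7.37 and 7.02 with GFP and LUC. In H2009 it had 9.44 and 9.33, against 9.64 and 9.82. The groups did not overlap in either line. The ID1 difference was 0.80 ± 0.18 in H1299 and -0.35 ± 0.18 in H2009 (limma adjusted p = 0.354 and 0.679).

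ID3 was separated in H2009 alone. It had 6.49 and 7.17 in H1299 with PTK7-1 and PTK7-2, against 6.54 and 5.60 with GFP and LUC, so PTK7-1 lay just under GFP. H2009 arrays had 5.87 and 6.41, against 6.89 and 7.06. The ID3 difference was 0.76 ± 0.36 in H1299 and -0.83 ± 0.36 in H2009. With each array left out in turn it ran from 0.29 to 1.24 in H1299 and from -1.10 to -0.57 in H2009. SMAD6, the inhibitory SMAD, had 5.15 and 4.82 in H1299, against 4.91 and 4.64, and the groups overlapped. For H2009 the SMAD6 values were 5.33 and 5.43, against 5.64 and 5.72, with both PTK7 arrays low. SMAD6 was among the dimmest 40% of genes that one alternative leaves out, and small differences of dim genes are compressed.

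The lines were compared directly through the knockdown difference in H1299 minus that in H2009. ID2 had 2.66 ± 0.36, with a 95% interval of 1.81 to 3.51, ID1 had 1.15 ± 0.25, with 0.56 to 1.74, and ID3 had 1.60 ± 0.51. Their unadjusted p-values were 1.38e-04, 0.00234 and 0.0158, and none passed after adjustment over all 18404 genes (limma adjusted p = 0.848 for ID2 and ID1, and 0.887 for ID3). Leaving out each array in turn gave values of 2.34 to 2.98 for ID2. At an unadjusted p under 0.05, 3 of the 9 genes were found, all 3 with positive values, where 5.17% of all genes were found and 2.98% with positive values. Adjusted over all genes, 0 of the 9 and 0% of all genes passed. PTK7 itself had 0.66 ± 0.24 in this comparison, with a 95% interval of 0.10 to 1.22. Its limma p was 0.0275 unadjusted and 0.922 adjusted. Of its control signal, 81.0% remained in H1299 and 51.4% in H2009. The part of this PTK7 difference in the values of the other genes was not tested.

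All 9 genes had a positive value in this comparison of the lines, where 8331 of 18404 genes did. Their median was 0.51, against -0.03 over all genes. Both PTK7 arrays above both controls in H1299 and below both in H2009 were seen for ID1 and ID2, 2 of 9 genes, and for 2.34% of all genes. These genes were not chosen blind to the data, so the counts are descriptions. After subtracting the mean of each line, ID1 and ID2 had a Pearson r of 0.946 over the 8 arrays, ID1 and ID3 0.847, and ID2 and ID3 0.751. The points share arrays, hairpins and the line means that were subtracted.

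**Figure D2:**
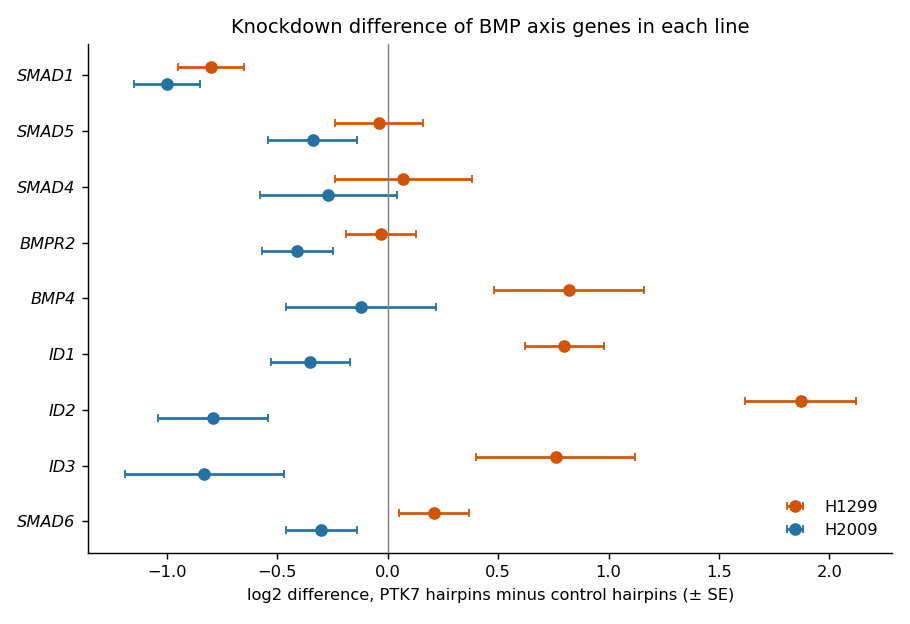
Log2 difference, PTK7 hairpins minus control hairpins, of the 9 genes in each line, with standard errors of the limma fit as bars. SMAD1 lies at -0.80 in H1299 and -1.0 in H2009, and ID2 lies at 1.87 in H1299 and -0.79 in H2009.

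**Figure D3:**
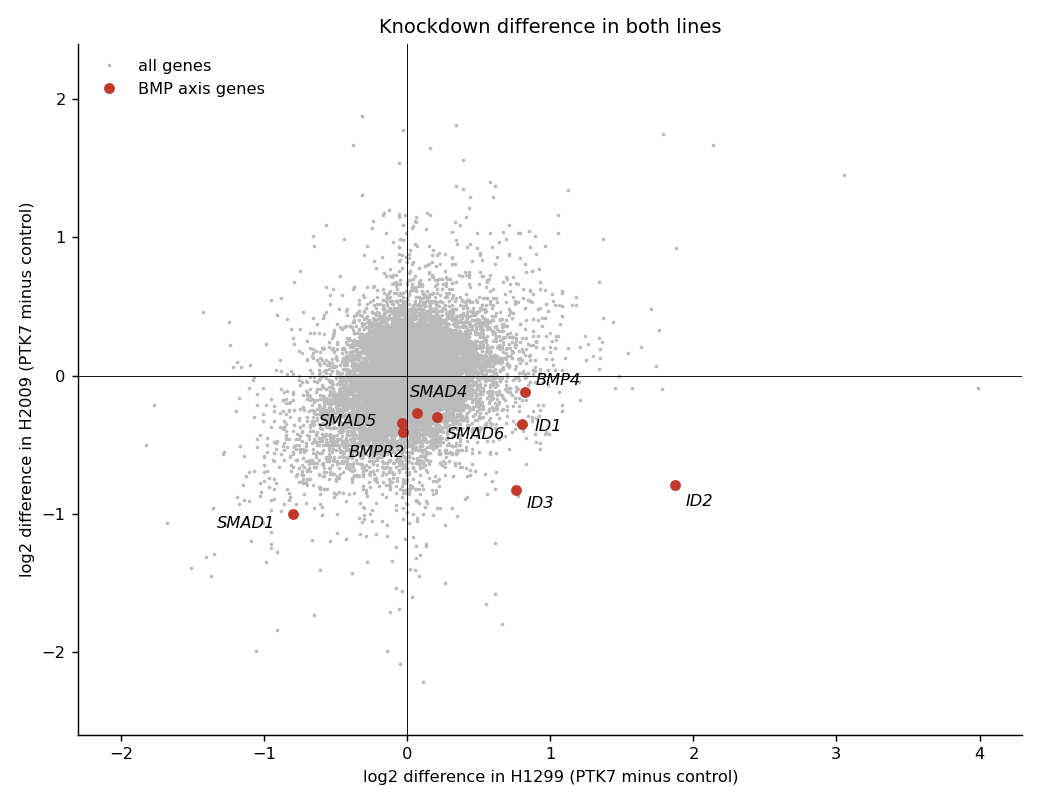
Knockdown difference in H1299 on one axis against that in H2009 on the other, both log2, for all genes and with the genes of the axis marked. ID1 and ID2 lie on the side that is positive in H1299 and negative in H2009, and SMAD1 is negative on both axes.

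In H1299, both PTK7 arrays lay above both controls for 3 of 9 genes, ID1, ID2 and BMP4, where 15.6% of all genes did. They lay below for SMAD1 alone, where 16.1% of all genes did. In H2009 they lay below for 7 of 9 genes, all but SMAD4 and BMP4 and with SMAD1 among them by choice, where 18.9% of all genes did. They lay above for 0 of 9, where 26.0% did. All 9 differences were negative in H2009, against 8072 of 18404 genes, with a median of -0.35 against 0.03 over all genes. In H1299 the median was 0.21 against -0.00. Array means of several marker lists were also separated between PTK7 and control hairpins. In H2009 the mesenchymal list had 7.83 to 7.97 under PTK7 hairpins and 7.24 to 7.71 under control hairpins, although FN1 within it averaged 9.86 under PTK7 hairpins and 9.90 under control hairpins. Lung lineage markers there had 5.22 to 5.24 under PTK7 hairpins and 5.26 to 5.45 under control hairpins. Within them NKX2-1 averaged 7.30 under PTK7 hairpins and 8.13 under control hairpins, and NAPSA 5.31 and 5.74. SFTPB, SFTPC and SCGB1A1 were higher under PTK7 hairpins. Fibroblast markers had 4.34 to 4.39 under PTK7 hairpins and 4.29 under control hairpins, and endothelial markers 4.15 to 4.18 under PTK7 hairpins and 4.02 to 4.04 under control hairpins. In H1299 the mesenchymal list had 9.05 to 9.09 under PTK7 hairpins and 8.81 to 9.02 under control hairpins, the endothelial list 4.17 to 4.21 under PTK7 hairpins and 3.92 to 4.13 under control hairpins, and the leukocyte list 4.76 to 4.79 under PTK7 hairpins and 4.86 to 4.88 under control hairpins. The part of these markers in the results was not tested.

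SMAD1 is left out of the knockdown counts, because the averaged contrast chose it and the single-line contrasts overlap that one. Of the other 8 genes of the axis, none passed the threshold for a knockdown difference, with or without the hairpin as a block. In the averaged contrast limma called 0 of 8 genes and 0% of all genes. At an unadjusted p under 0.05 it found 1, ID2, where 9.88% of all genes were found. The averaged ID2 value of 0.54 ± 0.18 (limma adjusted p = 0.384) combines the opposite values of the lines. In H1299 0 of 8 passed, where 0.00543% of genes did, and 3, ID1, ID2 and BMP4, had an unadjusted p under 0.05, where 7.48% did. In H2009 0 of 8 and 0% of all genes passed, and 2, ID2 and BMPR2, had an unadjusted p under 0.05, where 7.98% did. With the hairpin as a block, SMAD1 was among 149 genes past the threshold in the averaged contrast, where no gene passed without the block, and nothing is read from its place there.

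The PTK7 hairpins differed from each other for SMAD4. PTK7-1 minus PTK7-2 over both lines was -0.77 ± 0.15 on the log2 scale, 1.71-fold lower with PTK7-1 (limma adjusted p = 0.0390). Relative to the control mean, SMAD4 stood at -0.29 with PTK7-1 and 0.44 with PTK7-2 in H1299, and at -0.67 and 0.14 in H2009. SMAD4 was the only 1 of 9 genes to pass, where 3.73% of all genes did. The call was lost when any 1 of the 8 arrays was left out (adjusted p = 0.0514 to 0.200). Between the control hairpins GFP and LUC, 0 of 9 genes and 0% of all genes passed, and 0 of the 9 had an unadjusted p under 0.05, where 3.65% of all genes did. For SMAD4, GFP minus LUC was -0.11 ± 0.15, with a 95% interval of -0.46 to 0.25. As no gene at all was called there, the lack of a call is not particular to SMAD4.

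**Figure D4:**
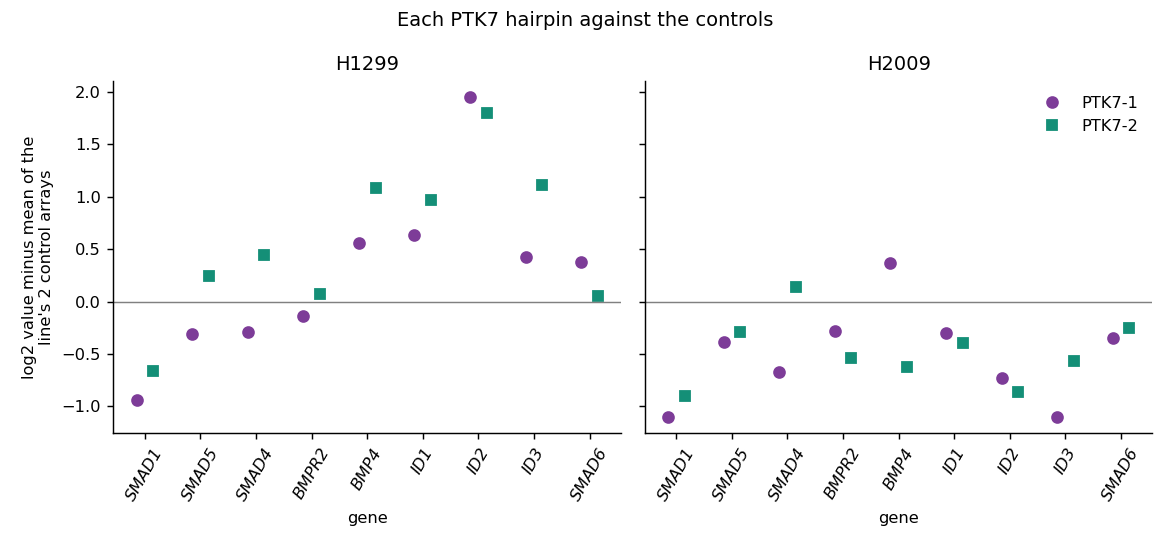
Log2 signal relative to the control mean of the line for each gene of the axis, with PTK7-1 and PTK7-2 as separate points in H1299 and H2009. SMAD4 lies lower with PTK7-1 than with PTK7-2 in both lines, at -0.29 and 0.44 in H1299 and -0.67 and 0.14 in H2009, while SMAD1 is negative at all 4 points.

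Of the wider pathway, 4 other genes differed between the PTK7 hairpins. FKBP1A, which encodes a binding protein that holds type I receptors inactive, stood at -1.13 for PTK7-1 minus PTK7-2 (limma adjusted p = 0.00983). ZFYVE9, whose product presents SMADs to the TGF-beta receptor, stood at 0.79 (0.0209), TGFBR2, the type II TGF-beta receptor gene, at 0.82 (0.0169) and TCF12, a basic helix-loop-helix partner of ID proteins, at 0.87 (0.0276). With SMAD4 these make 5 of the 85 pathway genes measured, 5.88% against 3.73% of all genes, a count that ran from 0 to 9 when each array was left out in turn.

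Under control hairpins, before any knockdown of PTK7, 4 of 9 genes differed between the lines, where 24.8% of all genes did. SMAD1 was higher in H1299, while ID1, ID2 and SMAD6 were lower. Of all genes, 12.5% were higher and 12.3% lower. ID2 had 5.0 and 4.45 in H1299 with GFP and LUC, against 7.72 and 8.36 in H2009. Its difference of -3.32 ± 0.25 made ID2 lower in H1299 (limma adjusted p = 1.54e-04). ID1 had 7.37 and 7.02 in H1299, against 9.64 and 9.82 in H2009, which is 5.82-fold lower at -2.54 ± 0.18 (limma adjusted p = 9.76e-05). Both ID genes had no overlap between lines.

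SMAD6 was also lower in H1299, at -0.90 ± 0.16 (limma adjusted p = 0.00633, and 0.0568 without the LUC array of H2009). SMAD1 was higher in H1299, at 0.56 ± 0.15 (limma adjusted p = 0.0315), and this call was lost without any 1 of the 4 control arrays (0.0964 to 0.201) and with a trended variance prior (0.0613). With the hairpin as a block, SMAD4, at 0.74 ± 0.31 (0.141, and 0.00523 with the block), and ID3, at -0.91 ± 0.36 (0.119, and 0.0342 with the block), also passed. The ID3 value ran from -1.38 to -0.44 when each array was left out in turn. BMP4 stood at -1.02 ± 0.34 (limma adjusted p = 0.0686). With PTK7 hairpins the order of the lines was kept for ID2, which had 6.67 and 6.52 in H1299 against 7.32 and 7.19 in H2009. For ID3 the order of the means was turned. They were 6.83 ± 0.48 in H1299 and 6.14 ± 0.38 in H2009 under PTK7 hairpins (SD, n = 2 each). Under control hairpins they were 6.07 ± 0.67 and 6.98 ± 0.12 (SD, n = 2 each). Single ID3 arrays nearly met, at 6.49 with PTK7-1 in H1299 and 6.41 with PTK7-2 in H2009. The lines were not tested against each other under PTK7 hairpins. The lines also differed in epithelial markers, with array means of 5.76 to 6.14 in H1299 controls and 10.51 to 10.60 in H2009 controls, and their part in these differences was not tested.

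The wider set of BMP and TGF-beta signalling genes was read from lists of 90 genes, of which 85 were measured. These lists include the 9 measured genes of the axis. Under control hairpins 24 of the 85 differed between the lines, 28.2% against 24.8% of all genes, 13 higher and 11 lower in H1299. Among the 24 are SMAD1, SMAD6, ID1 and ID2, already given above. Among ligands, 1 of 12 was called, BMP6, at 2.97 ± 0.39 (limma adjusted p = 0.00173). Among receptors and co-receptors, 2 of 11 were higher, BMPR1B, a type I receptor gene, at 1.95 ± 0.24 and ACVR2B, a type II receptor gene, at 0.88 ± 0.19. A further 2 were lower, the co-receptor genes ENG at -3.51 ± 0.20 and NEO1 at -1.29 ± 0.23. Among 8 SMAD genes, SMAD2 of the TGF-beta arm was higher with SMAD1, at 1.5 ± 0.17.

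Among 14 secreted antagonists and decoys, 0 were called higher and 2 lower in H1299, where 12.5% of all genes were called higher and 12.3% lower. The 2 were the chordin relative CHRDL1 at -2.56 ± 0.14 and TWSG1 at -1.66 ± 0.36. The same shares of all genes stand beside the list counts that follow. Of 17 SMAD regulators 3 were called higher, among them the ubiquitin ligase gene SMURF1 at 0.92 ± 0.15 and the phosphatase gene CTDSP2 at 1.16 ± 0.21, and 1 lower, TRIM33 at -0.66 ± 0.14. Of 15 BMP target genes 1 was called higher, DLX5 at 1.32 ± 0.14, and 4 lower. TCF4, a basic helix-loop-helix partner of ID proteins, was higher at 2.68 ± 0.20. The calls of ACVR2B, NEO1, TWSG1, CTDSP2 and TRIM33 were lost without the LUC array of H2009. That of TWSG1 was also lost without the GFP array of H2009, and those of ACVR2B and TRIM33 without that array or the LUC array of H1299 (limma adjusted p = 0.0531 to 0.0980 for these 5 genes). In the TGF-beta arm, 4 of 11 were called higher and 2 lower. They included the ligand gene TGFB1 at 2.54 ± 0.15, the co-receptor gene TGFBR3 at 3.83 ± 0.18 and the matrix target TGFBI at -4.60 ± 0.39.

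**Figure D5:**
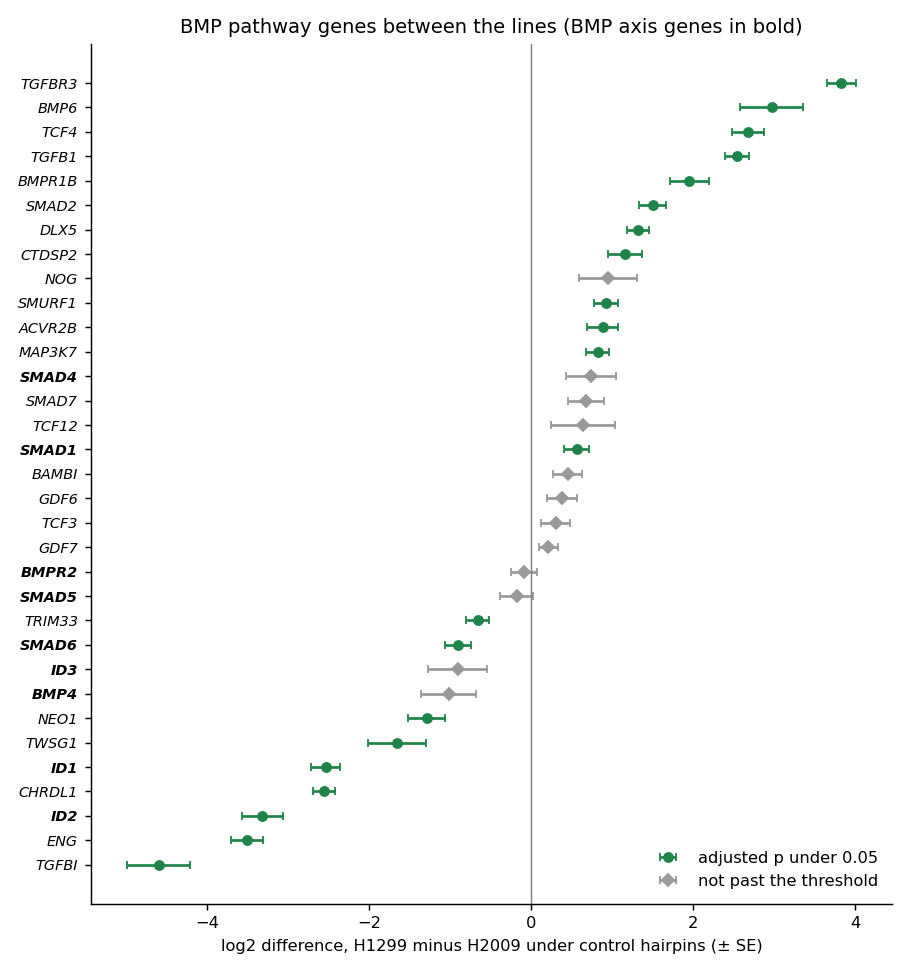
Log2 difference, H1299 minus H2009 under control hairpins, of the genes of the axis (bold) and the named genes of the pathway lists, ordered by size, with standard errors of the limma fit as bars. Green circles passed the threshold and grey diamonds did not. ID2 lies at -3.32, ID1 at -2.54 and SMAD6 at -0.90, while SMAD1 lies at 0.56.

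After PTK7 knockdown averaged over the lines, 0 of the 84 pathway genes other than SMAD1 passed in limma, and 1, CTDSPL, with the hairpin as a block. At an unadjusted p under 0.05, 4 were higher and 2 lower, 7.14% of these genes against 9.88% of all genes. Beside ID2 the values were 0.33 for the ligand GDF6, 0.66 for the antagonist FSTL3, 0.23 for the regulator XIAP, -0.32 for the type II receptor gene ACVR2A and -0.82 for the phosphatase gene CTDSPL. Medians were 0.10 over 12 ligands, -0.04 over 11 receptors, -0.07 over 8 SMAD genes, 0.08 over 14 antagonists, -0.06 over 17 regulators and 0.13 over 15 targets, where the median of all genes was 0.02. The SMAD list and its median include SMAD1, the lowest value in a range of -0.90 to 0.15. Nothing is read from that place, because this contrast chose SMAD1.

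Of the 15 BMP target genes, 13 had a positive value in H1299 and 7 in H2009, where 9100 and 10332 of 18404 genes did. The 15 include ID1, ID2, ID3 and SMAD6 of the axis, all positive in H1299 and negative in H2009. These counts are therefore not separate from the values of the axis genes. At an unadjusted p under 0.05, 3 of the 15, ID1, ID2 and DLX5, had a positive value in H1299, where 4.1% of all genes did. In H2009 0 had a positive value, where 3.6% of all genes did, and 1, ID2, a negative value, where 4.3% did. Their medians were 0.26 in H1299 and -0.01 in H2009, where those of all genes were -0.00 and 0.03. For the knockdown difference in H1299 minus that in H2009, 0 of 85 pathway genes passed. At an unadjusted p under 0.05 it had 7 positive and 0 negative pathway genes, 8.24% of the list, where 5.17% of all genes were found and 2.98% with positive values. Beside the 3 ID genes these were TCF4 at 1.38 ± 0.28, the TGF-beta ligand gene TGFB2 at 1.37 ± 0.50, the matrix protein gene CCN2 at 1.12 ± 0.34 and the homeobox gene DLX5 at 0.58 ± 0.20 (limma adjusted p = 0.848 to 0.922).

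The genes most like SMAD1 were found by Pearson r over the 8 arrays after subtracting the mean of each line, among 9201 genes brighter than the median gene. The highest were MOV10, an RNA helicase gene, at 0.985, MOB1B of the Hippo pathway at 0.984 and MAP3K4, a stress kinase gene, at 0.983. MOV10 had 7.60 and 8.02 in H1299 with PTK7-1 and PTK7-2, against 8.92 and 8.71 with GFP and LUC. Its H2009 values were 7.56 and 7.86, against 8.75 and 8.81. The lowest were SEC11C, a signal peptidase gene, at -0.978, PLOD3, a collagen-modifying enzyme gene, at -0.973, and DKK1, a secreted Wnt antagonist gene, at -0.967. PTK7 had 0.895 with SMAD1. Of the axis, BMPR2 had 0.613, SMAD5 0.590 and SMAD4 0.369, while ID3 had 0.190, SMAD6 0.146, ID1 -0.198, ID2 -0.251 and BMP4 -0.345. All these points share arrays and the knockdown groups. A gene with clear differences in the same direction in both lines therefore tends to have a high absolute r. ID1 and ID2, with opposite differences in the lines, did not.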

How the data were processed

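Total RNA from 8 cultures was hybridised to Affymetrix arrays with 1 biotin label. The deposited values are log2 signals per probe set, which the authors computed by RMA (R 2.14.0 is listed), as the submitters' processing notes have it. This method adjusts for background, normalizes between arrays and summarises probes, and it compresses small differences of dim genes. Array medians lay between 5.31 and 5.41, and r within groups, across genes, ran from 0.981 to 0.997. Depth does not apply to arrays, and their number limits the precision.

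Of 32321 probe sets, 19158 had a single gene symbol in the array annotation, 1388 had several and 11775 were not listed. By gene ID, 19128 matched the current gene table. The brightest probe set was kept for 637 genes with several, which left 18404 genes. Group means were fitted with limma 3.58.1 in R 4.3.3 over all 8 arrays, with Benjamini-Hochberg adjustment over all genes at 0.05. For differences between hairpins the model held hairpin and line.

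Both lines received the same set of 4 hairpins, per the labels, whose deviations from group means correlated between lines at 0.230 for control and 0.407 for PTK7 hairpins. Each contrast was therefore also fitted with hairpin as a block. Further settings were median centring, quantile normalization, no genes from the dimmest 40%, averaged probe sets, trended and robust priors, an additive fit, single-line fits and leaving out each array. A hairpin fit with a knockdown by line term was added after seeing the data.

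The genes of the axis, the lists and the rule for named genes were chosen with earlier results of these data known. The rule named every gene of the axis, PTK7, up to 4 genes per list by unadjusted p between the lines and up to 3 in the averaged knockdown contrast, and the 3 highest and 3 lowest r with SMAD1. Genes that differed between the PTK7 hairpins or in the comparison of the lines, and the SMAD1 promoter window, were named after their values were seen. The fits were tested on simulated data.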

Additional observations from a re-analysis of the deposited data

Results flagged for a closer look

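ID2 and ID1 had differences of opposite sign in the lines. Every PTK7 array lay above both control arrays in H1299 and below both in H2009. The knockdown difference in H1299 minus that in H2009 was 2.66 ± 0.36 for ID2 (limma adjusted p = 0.848) and 1.15 ± 0.25 for ID1 (limma adjusted p = 0.848), so the test of the difference did not pass over all genes for either. With the hairpin as a block the adjusted p for ID2 was 0.365. The same opposite separation was seen for 2.34% of all genes. With ID1 and ID2 included, 7 of the 85 pathway genes had it, among them TCF4 and CCN2.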

How the results depend on the processing

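Apart from leaving out arrays, the alternatives turned the direction of 0 of 701 single-gene differences and ended 1 call, SMAD1 between the lines with a trended prior. With the hairpin as a replicate block, 1 of the 84 pathway genes other than SMAD1 passed in the averaged contrast against 0 without it, CTDSPL at -0.82, SMAD1 itself also lay past the threshold with it and not without it, and over all genes 149 passed (42 higher, 107 lower) against 0, 4 against 1 in H1299 and 1 against 0 in the comparison of the lines. The block added SMAD4 and ID3 between the lines and, SMAD1 in the averaged contrast apart, changed no other call of the 9 genes. Without the dimmest 40% of genes, 8 pathway genes differed between the PTK7 hairpins in place of 5, and SMAD6 was not tested. With each array left out in turn, 33 of 768 single-gene differences changed sign. The number of the 9 genes called between the lines ran from 2 (without LUC in H2009, ID1 and ID2) to 5, that between PTK7 hairpins was 0, and that of pathway genes between PTK7 hairpins ran from 0 to 9. SMAD1 in H1299 ran from -0.94 to -0.66. Differences that changed sign ran, in the averaged contrast, from -0.30 to 0.11 for SMAD4, -0.13 to 0.04 for SMAD6, -0.27 to 0.20 for ID3, -0.34 to 0.16 for TCF12 and -0.07 to 0.11 for TCF3. In H1299 they ran from -0.31 to 0.24 for SMAD5, -0.29 to 0.44 for SMAD4 and -0.20 to 0.13 for BMPR2. In H2009 they ran from -0.67 to 0.14 for SMAD4 and -0.62 to 0.37 for BMP4, in the comparison of the lines from -0.06 to 0.74 for SMAD4, and between the lines' controls from -0.25 to 0.07 for BMPR2. Between the PTK7 hairpins they ran from -0.20 to 0.43 for SMAD6, -0.65 to 0.41 for ID1, -0.76 to 1.03 for ID2, -0.26 to 0.31 for BMPR2 and -0.58 to 1.06 for BMP4. The model for differences between hairpins held hairpin and line only. With a PTK7 array left out, a knockdown difference that differs between the lines enters the value of PTK7-1 minus PTK7-2. On the arrays themselves, ID2 had 6.67 and 6.52 with PTK7-1 and PTK7-2 in H1299, and 7.32 and 7.19 in H2009. The cause of the sign changes was not otherwise tested. Detection calls were not used here, so how far a dim signal such as that of SMAD6 stands above background is not given.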
